A study of Mus musculus with 7 samples.

Results

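Erythroid cells, the globin-filled cells of the red blood lineage, were examined in droplet single-cell RNA sequencing of whole mouse noses at embryonic day 14.5. A cell was taken as erythroid where 7 globin genes (Hba-a1, Hba-a2, Hba-x, Hbb-bs, Hbb-bt, Hbb-y and Hbb-bh1) together made up at least 20% of its UMIs (unique molecular identifiers, 1 per captured transcript). The rule was applied to barcodes in which 200 or more genes were detected and mitochondrial transcripts took no more than 10%, and 289 of 33063 such barcodes met it (0.874%). The wild-type (WT) noses were of the CD1 IGS strain and gave 5 libraries. WT replicate 3 shared 7386 barcodes with replicate 4, including 35 erythroid cells, and was left out, so that WT stands for 4 captures. A single nose labelled ProKR2iCre/R26tdTomato, of a B6;SJL background with Cre at Prokr2 and a tdTomato reporter under the CAG promoter, gave 2 libraries. A part of that suspension was sorted, the sample labels do not say which library it is, and the libraries are called Prokr2Cre library 1 and 2. All noses were dissociated with papain and collagenase and frozen before loading.

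Mouse red cells arise in successive waves. Primitive erythroid cells come from the yolk sac, enter the blood as nucleated cells, and use the embryonic beta-type globins Hbb-y and Hbb-bh1 and the embryonic alpha-type globin Hba-x beside the adult alpha-type globins. Definitive cells mature in the fetal liver, lose their nucleus before they circulate, and use the adult beta-type globins Hbb-bs and Hbb-bt. Around mid-gestation both kinds circulate together, so a dissected nose holds them as the blood in its vessels.

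The sequences just upstream of the globin start sites are shown because the main split among these cells follows which of these genes was used. Each is the 130 bases before the annotated start of the gene (RefSeq, GRCm38.p6), read 5′ to 3′ on the gene's strand, with 4 motifs in capitals where they occur on either strand. These are the CACCC box, bound in erythroid cells by Klf1, the promoter motif known as the CCAAT box, the Gata factor motif GATAA, and the TATA box core TATAA. The beta-type genes lie on chromosome 7, minus strand (Hbb-y chr7:103853208-103853337, Hbb-bs chr7:103827929-103828058, Hbb-bt chr7:103813924-103814053). The alpha-type genes lie on chromosome 11, plus strand (Hba-x chr11:32276470-32276599, Hba-a1 chr11:32283542-32283671).
Hbb-y: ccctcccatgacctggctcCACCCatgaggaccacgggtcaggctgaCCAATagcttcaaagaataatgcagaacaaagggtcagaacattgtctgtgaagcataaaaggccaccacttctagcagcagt
Hbb-bs: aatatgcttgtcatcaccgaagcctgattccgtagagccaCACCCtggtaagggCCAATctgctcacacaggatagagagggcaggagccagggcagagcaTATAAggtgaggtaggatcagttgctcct
Hbb-bt: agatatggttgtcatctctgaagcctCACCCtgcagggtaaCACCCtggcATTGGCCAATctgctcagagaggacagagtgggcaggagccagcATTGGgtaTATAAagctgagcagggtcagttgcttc
Hba-x: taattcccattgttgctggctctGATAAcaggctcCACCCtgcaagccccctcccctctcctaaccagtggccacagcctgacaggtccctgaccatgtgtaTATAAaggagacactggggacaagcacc
Hba-a1: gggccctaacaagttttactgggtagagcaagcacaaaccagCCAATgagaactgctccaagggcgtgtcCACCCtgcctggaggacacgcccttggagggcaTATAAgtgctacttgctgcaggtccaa
All 5 held CACCC, which occurs in 33.8% of 32454 promoter windows of this length. CCAAT was found in 4 of them (22.3% of windows) and not in these letters in Hba-x, and in Hbb-bt 2 of its 3 matches lie on the other strand. TATAA was found 27 to 29 bases upstream of the start in all but Hbb-y (12.7% of windows), and GATAA in Hba-x alone (11.3%). A CACCC lies 111 bases upstream of the start in Hbb-y, 90 in Hbb-bs, and 104 and 89 in Hbb-bt. The windows of Hba-a1 and Hba-a2, each of 300 bases, share an identical run of 297 bases, and reads of these near-identical genes may have been split between them uncertainly.

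Erythroid cells were rare in every library and their share differed between captures of the same genotype. They numbered 125 of 8379 kept cells in WT replicate 1 (1.49%, exact binomial 95% interval 1.24 to 1.77), 50 of 10634 in replicate 2 (0.470%, 0.349 to 0.619), 35 of 7182 in replicate 4 and 51 of 3777 in replicate 5 (1.35%). The WT mean was 0.95% ± 0.547 (SD, n = 4), and replicates 1 and 5 lay above replicates 2 and 4. Prokr2Cre library 1 held 26 of 1976 (1.32%) and library 2 held 2 of 1115 (0.179%). These intervals cover counting error only. The gene minimum also bears on the number, because 101 further barcodes reached 20% globin with fewer than 200 genes. Another 3 were left out by the mitochondrial limit alone. Just inside the globin limit lay 3 cells with 21.3%, 22.7% and 23.9% globin, all of WT replicate 1 and with a median of 3836 genes. Just outside lay 6 cells of the 4 WT captures, with 15.1% to 17.8%.

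The cells were small in RNA apart from globin. In the 4 WT captures the median erythroid cell had 5713 to 12004 UMIs, of which 86.4% to 90.0% were globin, and only 296 to 426 genes. Its median non-globin content was 632 to 1217 UMIs, against a median of 5091 to 10367 in other cells of the same captures. Globin was the value that chose the cells, so its share is a description only. Erythroid cells held 94.1% to 98.7% of the globin UMIs of kept cells in the 4 WT captures. Other kept cells carried a mean of 0.752 to 3.85 globin UMIs each in the WT captures. These means include barcodes just under the limit, such as 1 of WT replicate 5 with 58716 UMIs and 16.3% globin. The median globin share of other cells was 0% to 0.0101%.

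The cells fell into 2 classes with nothing between them. The embryonic share of beta-type globin, Hbb-y plus Hbb-bh1 over all 4 beta-type genes, was between 80% and 94.1% in 28 WT cells and at most 0.0369% in the other 233. Across all libraries 0 of 289 cells lay between 10% and 80%. The classes are called embryonic-globin-rich and adult-globin-rich here, with 33 and 256 cells, and 50% as the dividing value. They are ranges of a globin ratio, not cell types named from other evidence.

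**Figure D1:**
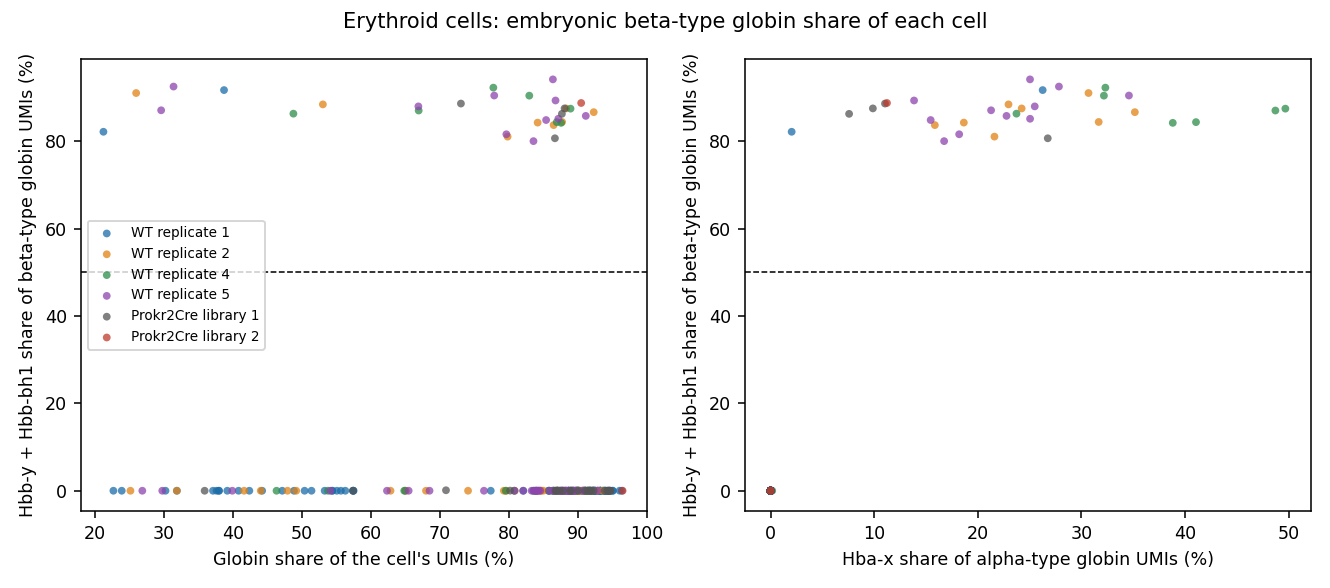
Each point is 1 erythroid cell, coloured by library, with the embryonic share of its beta-type globin UMIs on the vertical axes (%) against its globin share of all UMIs (left, %) and the Hba-x share of its alpha-type globin UMIs (right, %). The dashed line marks 50%, and no cell lies between 10% and 80%.

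Embryonic-globin-rich cells numbered 2 of 125 in WT replicate 1 (1.6%, 0.194 to 5.66), 8 of 50 in replicate 2 (16%, 7.17 to 29.1), 7 of 35 in replicate 4 (20%) and 11 of 51 in replicate 5 (21.6%). Replicate 1 was the low one, and the mean was 14.8% ± 9.10 (SD, n = 4). Prokr2Cre library 1 held 4 of 26 (15.4%) and library 2 held 1 of 2. Among the 101 barcodes of all libraries with fewer than 200 genes the embryonic-globin-rich share was 20.8%, against 11.4% of the 289 members. It was 8 of 14 in WT replicate 5 and 5 of 30 in replicate 4. The gene minimum thus removed cells of both classes, and over all libraries relatively more embryonic-globin-rich ones.

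Embryonic-globin-rich cells held embryonic and adult beta-type globins together, and adult-globin-rich cells held almost only the adult ones. In WT, the 28 embryonic-globin-rich cells held 74735 UMIs of Hbb-y, 144 of Hbb-bh1, 13209 of Hba-x, 5159 of Hbb-bs and 6371 of Hbb-bt. Hbb-bh1, a beta-type gene of early primitive cells, thus gave 0.167% of their beta-type UMIs. The 233 adult-globin-rich cells held 989200 UMIs of Hbb-bs and 411796 of Hbb-bt, but 12 of Hbb-y, 0 of Hbb-bh1 and 6 of Hba-x. Adult beta-type UMIs were present in all 33 embryonic-globin-rich cells of all libraries (9 to 7099 UMIs per cell, median 385), where other cells of the WT captures averaged at most 3.85 UMIs of all globins. Hbb-y UMIs were found in 12 of the 256 adult-globin-rich cells, with at most 4 in a cell.

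The mix within each globin type varied between embryonic-globin-rich cells. Hba-x made up 2.03% to 49.7% of the alpha-type UMIs of a WT cell and at most 0.158% in an adult-globin-rich cell. Among the adult beta-type UMIs of the embryonic-globin-rich class, Hbb-bs made up 53.4% in WT replicate 2, 35.3% in replicate 4 and 45.4% in replicate 5. The adult-globin-rich class of the same captures gave 63.8%, 63.3% and 62.6%. WT replicate 1 went the other way, with 78.5% over 2 cells against 74.8%. In Prokr2Cre library 1 the values were 52.0% and 67.6%, and in library 2, with 1 cell a class, 78.1% and 74.2%. The adult alpha-type copies also differed between libraries: Hba-a2 gave 1.18% to 2.32% of adult alpha-type UMIs in the 4 WT captures, and 48.5% and 43.7% in the Prokr2Cre libraries. Strain, library and genotype cannot be told apart in that difference, and the split of reads between these copies is uncertain.

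Globin in other cells was compared with the erythroid mix. In kept cells with under 1% globin, the embryonic share of beta-type UMIs was 5.16%, 15.9%, 23.9% and 26.6% in WT replicates 1, 2, 4 and 5, against 0.476%, 8.34%, 20.8% and 9.97% in the erythroid cells. It was 18.3% in both for Prokr2Cre library 1, and 8% in other cells (over 25 UMIs) against 25% in erythroid cells for library 2. WT replicate 1 was lowest on both measures. Globin UMIs outside erythroid cells thus held a larger embryonic share than the kept erythroid cells in each of the 4 WT captures.

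Many barcodes with an intermediate globin share also carried RNA of other cell types. In WT, 197 of 261 erythroid barcodes had at least 80% globin, with a median of 308 genes, while the 30 barcodes with 20 to 50% had 2509.5 genes. Levels of marker genes were summed, in UMIs per 1000000 non-globin UMIs (CPM). The 6 mesenchyme markers (the fibroblast collagens Col1a1, Col1a2 and Col3a1, with Pdgfra, Prrx1 and Twist1) reached 272 ± 106 CPM (SD, n = 4) at 80% globin or more, 3228 ± 820 in barcodes with 20 to 80%, and 3650 ± 455 in other cells. The 5 cartilage markers averaged 141 ± 132 CPM at 80% or more, 2598 ± 3517 at 20 to 80% and 1125 ± 497 in other cells. The captures differed in this, with 7529, 2720, 97.0 and 45.1 CPM at 20 to 80% in WT replicates 1, 2, 4 and 5, and in replicate 5 the value at 80% or more was the larger (101 CPM). The 5 epithelium markers did not separate the bands, with 137 ± 171 CPM at 80% or more and 160 ± 175 at 20 to 80%, against 446 ± 169 in other cells. The 7 measured erythroid markers outside the rule (among them Alas2, Slc4a1, Hemgn, Klf1, Gata1 and Epor) ran the opposite way, at 16449 ± 4588 CPM at 80% or more, 2379 ± 1076 at 20 to 80% and 3.40 ± 1.29 in other cells. Of these, Alas2 and Slc4a1 reached the level needed to be described below, whereas Epor was at 0 and Gata1 had 2 UMIs. No doublet caller was run, and the part of doublets and free RNA in the barcodes with 20 to 80% globin was not tested.

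**Figure D2:**
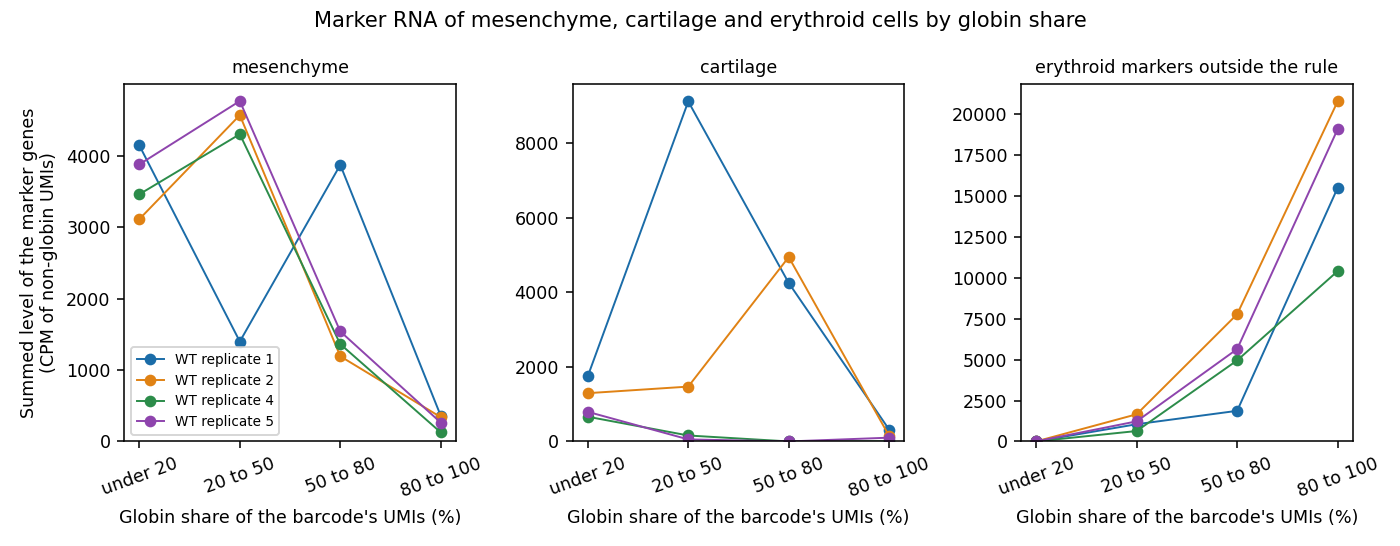
Summed CPM of mesenchyme, cartilage and erythroid marker genes on the vertical axes, by globin share of the barcode (%), with 1 line for each WT capture. Erythroid markers are highest at 80 to 100% globin in all 4 captures, and mesenchyme markers are lowest there.

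Markers of other blood cells were nearly absent at 80% globin or more in WT: 0 UMIs for the 5 platelet and the 5 neutrophil markers in all 4 captures. Macrophage markers gave 1 UMI in WT replicate 1 and 0 in the other WT captures, and endothelial markers 3 UMIs there and 0 elsewhere. Because of the mixed barcodes, levels of erythroid RNA are given below for cells with at least 80% globin, and for all 289 members where stated. Of the 197 such WT cells 182 were adult-globin-rich, so the levels describe mainly that class.

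Beside globin, genes of iron storage, peroxide removal and the ubiquitin system stood high. Ferritin heavy chain (Fth1) stood at 50896, 58141, 74828 and 55037 CPM in WT replicates 1, 2, 4 and 5, against 1440 to 2395 in other cells. Ferritin light chain (Ftl1) stood at 44113 ± 6098 CPM (SD, n = 4). All 4 captures exceeded every value in other cells for both. The peroxide-removing enzymes followed, with peroxiredoxin 2 (Prdx2) at 35531 ± 2102 and glutathione peroxidase 1 (Gpx1) at 18508 ± 2493 CPM. Gpx1 was 104 to 122 times its level in other cells. Also among the 25 genes with the highest levels were the histone H3.3 gene H3f3a (14669 ± 972 CPM), the polyamine regulator Oaz1 (13370 ± 948), the ubiquitin ligase Mkrn1 (12514 ± 1621), the biliverdin reductase Blvrb (10829 ± 1361) and the ubiquitin gene Ubb (6820 ± 1873). Gm42418, an annotated RNA that overlaps ribosomal RNA sequence, ranged from 17972 CPM in WT replicate 2 to 139012 in replicate 1.

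A fold of at least 4 in each of the 4 WT captures was used to describe erythroid cells against other cells. No test was made, since the cells were chosen by counts of the same barcodes. A gene was described where it reached 100 CPM in erythroid or in other cells in each WT capture, so a gene that reached this only in erythroid cells was bound to be higher, and the counts below are a description. Over all members, 85 of 1246 genes were higher (6.82%) and 1 was lower (0.0803%). With at least 80% globin, 158 of 1277 were higher (12.4%) and 296 were lower (23.2%), and the median gene of all those described stood at 0.265 of its level in other cells.

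Of a list of 14 heme synthesis genes, 7 reached the level needed to be described, all through the erythroid cells, and were higher, while the other 7 did not reach it. Those described included Alas2, the first enzyme of erythroid heme synthesis, Alad, Urod, the last enzyme Fech, the mitochondrial carrier Slc25a39 and the translocator protein gene Tspo2. Alas2 stood at 9520, 11706, 4469 and 9819 CPM in WT replicates 1, 2, 4 and 5, against 0.162 to 1.27 in other cells. Iron genes showed 6 of 8 higher, against 12.4% of all genes described. Among them were the mitochondrial iron importer Slc25a37 (4062 ± 1030 CPM), the glutaredoxin Glrx5 of iron-sulfur assembly (4964 ± 165) and the heme transporter Slc48a1 (884 ± 441). The transferrin receptor gene Tfrc, the uptake route for iron in precursors, had 1 UMI in all, in WT replicate 5.

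Among 26 membrane and skeleton genes, 8 of the 9 described were higher, against 12.4% of all genes described. The anion exchanger band 3 (Slc4a1) stood at 1692 ± 943 CPM, the Rh protein Rhd at 1523 ± 416, spectrin beta (Sptb) at 272 ± 134 and the Kell antigen (Kel) at 317 ± 155.

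Of a list of ubiquitin conjugation and organelle clearance genes, 14 of 16 described were higher (12.4% of all genes described were). They included Mkrn1 at 329 to 435 times its level in other cells, the conjugating enzyme Ube2l6 (1311 ± 322 CPM), Trim10 (1393 ± 477), Ube2o (925 ± 476), the autophagy genes Map1lc3b (3005 ± 591) and Gabarapl2 (3675 ± 553), and the mitophagy receptor Bnip3l (5321 ± 493). Of 16 described redox and red cell metabolism genes, 11 were higher, against 12.4% of all genes described. Pgk1 and Ldhb, 2 of the 16, were lower, a smaller share than the 23.2% of all genes described. Bisphosphoglycerate mutase (Bpgm), which sets the oxygen affinity of hemoglobin, reached 7943 ± 726 CPM, and carbonic anhydrase 2 (Car2) 5478 ± 1450.

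**Figure D3:**
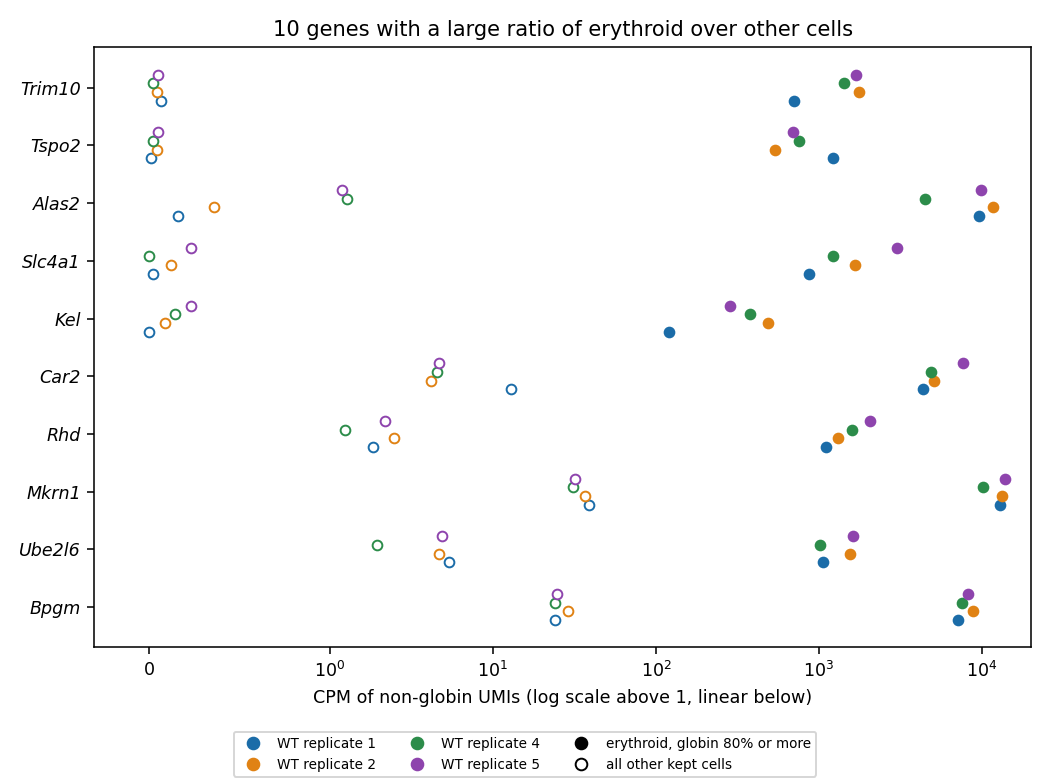
Levels of 10 genes named in the text, all among the 20 with the largest ratio, in erythroid cells (globin 80% or more, filled) and all other kept cells (open), 1 point per WT capture, in CPM of non-globin UMIs on a scale that is logarithmic above 1. Mkrn1 stands at 10160 CPM or more in every capture of erythroid cells and at 38.6 or less in other cells.

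Few single transcription factor genes of the lineage reached the level needed to be described. Summed over the 24 listed, they stood at 1366 ± 502 CPM (SD, n = 4), against 841 ± 70.8 in other cells. Of 24 erythroid transcription factor genes, Lmo2 alone reached the level needed to be described (267 ± 84.7 CPM, higher in all 4 captures), and Gata1 had 2 UMIs over the 4 WT captures, 1 each in replicates 1 and 2. Epor and Kit, receptors of erythroid precursors, had 0 UMIs. Among 21 proliferation genes, Ube2c, which encodes a ubiquitin-conjugating enzyme of mitotic exit, was higher at 2450 ± 221 CPM against 176 to 346, whereas Tubb5 and Hmgb2 were lower, 2 of 8 described against 23.2% of all genes. Top2a reached 43.3 ± 16.3 CPM. The nuclear RNAs Xist, Meg3 and Kcnq1ot1 were lower in all 4 captures, with Xist at 85.4 ± 29.9 CPM against 941 to 1612. Malat1, a further nuclear RNA, spread widely, with 2981, 8160, 13153 and 3449 CPM in WT replicates 1, 2, 4 and 5. It is given by globin class below. Ribosomal protein genes held 12.7% to 15.3% of non-globin UMIs against 20% to 28.1% in other cells of the 4 captures, and mitochondrial genes held 3.97% ± 1.04 against 3.10% ± 0.749 (SD, n = 4).

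The comparison of the 2 globin classes asks how they differ apart from globin. Whether the classes are primitive and definitive cells was not tested. Non-globin UMIs were summed per capture and class and tested with edgeR, with the capture as a block, in the 3 WT captures that held at least 4 cells of both classes: 8 and 42 cells in WT replicate 2, 7 and 28 in replicate 4, and 11 and 40 in replicate 5. Embryonic-globin-rich cells were lower in 85 of 341 genes tested (24.9%) and higher in 37 (10.9%). A gene that passed the count filter only through its adult sums could hardly come out higher. The counts of listed genes below are therefore a description. With cells of at least 80% globin, 60 of 192 genes were lower (31.2%) and 35 higher (18.2%). Of the 122 genes called over all members, 93 could be tested at 80% globin. All 93 kept their direction there, and 73 were called again. Over all members 64 genes were called in the fit without WT replicate 5, the capture with the largest class sums.

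The size of the classes limits these sums. Embryonic-globin-rich sums held 10696, 16387 and 23774 non-globin UMIs, of which 18.2% to 32.2% came from cells with at least 80% globin, against 31.7% to 66.0% of the adult-globin-rich sums. The adult share was the larger in each capture, and for that reason values at 80% globin are given where a gene could be tested there. At 80% globin the mesenchyme markers gave 0, 0 and 210 CPM in embryonic-globin-rich and 375, 163 and 269 CPM in adult-globin-rich cells. These rest on 5, 4 and 6 embryonic-globin-rich cells.

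Heme synthesis genes were lower in embryonic-globin-rich cells. Of the 14 listed genes 5 had enough UMIs to be tested. All 5 were called, over all members (24.9% of all genes tested were lower) and at 80% globin (31.2%) alike. Over all members they had a median log2 fold change of -2.75 (embryonic over adult) against -0.02 for all genes tested. Alas2 had 10, 15 and 14 UMIs in the embryonic class of WT replicates 2, 4 and 5 (935, 915 and 589 CPM) and 321, 105 and 558 in the adult class (5460, 3756 and 4882 CPM). No capture overlapped. The log2 fold change was -2.47 ± 0.32 (SE, edgeR adjusted p = 2.3e-12), and -2.33 ± 0.48 at 80% globin. Urod (-3.12), Slc25a39 (-2.75) and Fech (-2.31) were also lower over all members, and stood at -4.07, -2.30 and -1.59 at 80% globin.

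Of 26 listed membrane genes 5 were tested. They gave 5 of 5 lower over all members, against 24.9% of all genes tested, and 4 of 5 at 80% globin, against 31.2%. Of these, Mpp1 passed the count filter through the adult sums alone. There Epb41, a membrane skeleton protein gene, missed the threshold (edgeR adjusted p = 0.07). Over all members Epb41 (-0.98) was not called without WT replicate 2 (0.075) or replicate 5 (0.25), nor without the capture block (0.19). The palmitoylated membrane protein gene Mpp1 had 0 UMIs in all 3 embryonic sums and 31, 25 and 66 in the adult sums, at least 10.3-fold lower (against a floor of 3 UMIs over the group). Rhd and Slc4a1 were lower by log2 fold changes of -4.08 and -2.78. At 80% globin Rhd had 0 UMIs in the embryonic class, at least 8.18-fold lower, and Slc4a1 stood at -3.51. Slc4a1 was not called at 50% globin or more (-2.33, edgeR adjusted p = 0.068).

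Iron genes split. Slc25a37, which brings iron into mitochondria, had 0, 4 and 2 UMIs against 143, 94 and 336 (-4.56 ± 0.47, edgeR adjusted p = 5.7e-19). At 80% globin it had 0 UMIs in the embryonic class and 65, 79 and 265 in the adult class, at least 20-fold lower. Glrx5 was lower as well (-2.20, and -2.42 at 80% globin). Fth1 went the other way, at 111568, 133472 and 126364 CPM in embryonic-globin-rich cells with at least 80% globin against 52567, 58029 and 47406, with no overlap (1.40 ± 0.26, edgeR adjusted p = 1.4e-06). Over all members its fold change was 0.69 ± 0.17, with 35901, 60170 and 33776 CPM in the embryonic and 21313, 45466 and 21793 in the adult class of WT replicates 2, 4 and 5. The embryonic value was the larger within each of the 3 captures, while the classes overlapped between captures. Without the filter on low counts it was -0.12, in a fit that moved the median of the same 341 genes by -0.80. With WT replicate 1 added it was -0.069, where the median moved by -0.16. Fth1 was also not called over all members when WT replicate 2 (edgeR adjusted p = 0.17), 4 (0.10) or 5 (0.21) was left out, nor at 50% globin or more (0.064) or without the capture block (0.43). Ftl1 was not called (-0.09 over all members, 0.47 at 80% globin).

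Ubiquitin and clearance genes gave 7 of 10 lower, against 24.9% of all genes tested, and none higher, against 10.9%. Trim10 had 0, 1 and 0 UMIs in the embryonic class against 58, 35 and 97 in the adult class, so every adult sum lay far above every embryonic one (-5.42 ± 0.88, edgeR adjusted p = 2.2e-08). Mkrn1 (-2.76), Gabarapl2 (-2.81), Ube2l6 (-2.58) and Ube2o (-3.28) were lower too, while Ubb, Ube2h and Map1lc3b were not called. At 80% globin Trim10 had 0 UMIs in the embryonic class, at least 7.49-fold lower, and Mkrn1 (-1.97), Gabarapl2 (-2.34) and Ube2l6 (-1.67) were lower, while Ube2o was not tested. Ube2l6 was not called at 50% globin or more (edgeR adjusted p = 0.09). Bnip3l was called over all members (-1.14) but not at 80% globin (-0.65 ± 0.43, edgeR adjusted p = 0.19).

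In the redox and metabolism list 4 of 8 were lower, against 24.9% of all genes tested, and none was higher, against 10.9%. Gpx1 stood at 1028, 3408 and 840 CPM in embryonic-globin-rich cells with at least 80% globin and at 20437, 20446 and 18482 in adult-globin-rich ones (-3.32 ± 0.46, edgeR adjusted p = 5.7e-11). Over all members the fold change was -3.00, WT replicate 4 held 97 of the 106 embryonic UMIs, and without it the value was -5.12. Gpx1 was not called over all members without the capture block (-2.19, edgeR adjusted p = 0.079), nor at 50% globin or more (-2.87, 0.051). Prdx2 was lower by less, -1.33 ± 0.34, and Car2 by -2.40 ± 0.51. Bpgm was lower over all members (-1.68) and missed the threshold at 80% globin (-0.84 ± 0.41, edgeR adjusted p = 0.075). The surface protein gene Cd24a was lower (-2.65), with 2, 3 and 20 UMIs against 160, 65 and 401, as was the heme-binding protein gene Hebp1 (-1.88), which was not called without WT replicate 2 (edgeR adjusted p = 0.06) or replicate 5 (0.20), nor at 50% globin or more (0.10). At 80% globin Cd24a stood at -1.86 and Hebp1 at -2.08.

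Other genes with large differences were Ube2c, with 0 UMIs in the embryonic class of each capture and 87, 65 and 138 in the adult class (at least 24.5-fold lower), Chac2, a glutathione-degrading enzyme gene (0 against 33, 13 and 55, at least 8.52-fold lower), and Cmas, which activates sialic acid (1, 0 and 0 against 44, 30 and 98). Pla2g16 and the cold-shock protein gene Ybx3 were lower, with log2 fold changes of -4.60 and -3.99. H3f3a was lower, at -1.13 and at -1.24 with 80% globin. With 80% globin Ube2c, Cmas, Pla2g16 and Ybx3 had 0 UMIs in the embryonic class, at least 11.1-, 6.86-, 4.26- and 9.89-fold lower, and Chac2 was not tested. Of proliferation genes only Ube2c was called among 3 tested, and Mki67 and Top2a had too few UMIs to test. Lmo2 had 0 UMIs in the embryonic class and 8, 6 and 21 in the adult class, too few for the filter.

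**Figure D4:**
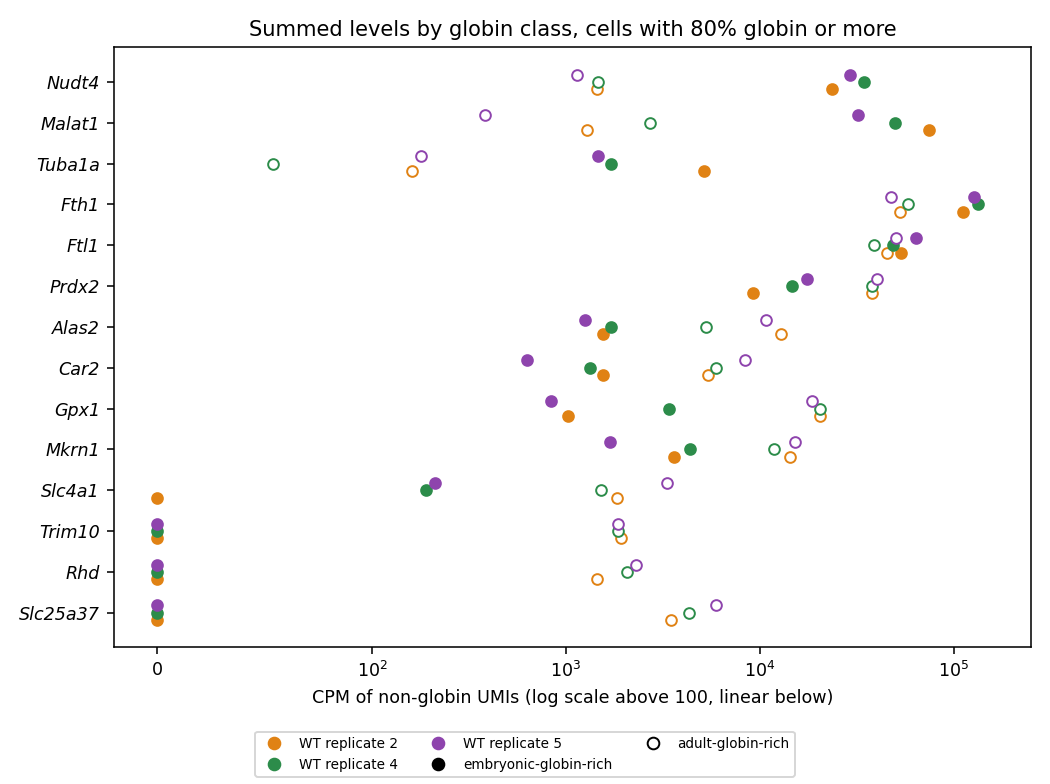
CPM of 14 genes in embryonic-globin-rich (filled) and adult-globin-rich cells (open) with at least 80% globin, 1 point per WT capture, on a scale that is logarithmic above 100. Genes were picked from those described in the text; Nudt4, Malat1, Tuba1a and Fth1 are higher in the embryonic class in all 3 captures, Ftl1 overlaps, and the others are lower.

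Fewer genes were higher, and over all members Nudt4 led them in fold change, while at 80% globin Malat1, described below, had a larger one. Nudt4, a hydrolase of inositol pyrophosphates and dinucleotides, had 84, 223 and 214 UMIs in the embryonic class (7853, 13608 and 9001 CPM) and 33, 28 and 56 in the adult class (561, 1002 and 490 CPM), a log2 fold change of 4.02 ± 0.28 (edgeR adjusted p = 2.2e-38). It was 4.60 ± 0.41 at 80% globin. The alpha-tubulin gene Tuba1a rose by 2.20 ± 0.54 over all members and 4.16 ± 0.83 at 80% globin, the chaperone gene Hsp90ab1 by 1.16 and 2.92, and Fam104a by 1.59 and 2.29. Over all members Tuba1a was not called without WT replicate 2 (edgeR adjusted p = 0.12) or replicate 4 (0.067), and Hsp90ab1 not without replicate 4 (0.093). Fam104a was not called with WT replicate 1 added (0.91, edgeR adjusted p = 0.20). Without the filter on low counts, Nudt4 was the only 1 of the 12 genes with the largest higher fold changes that kept its call, and the others had adjusted p of 0.32 to 0.99. That fit lowered the median log2 fold change of the 341 genes by 0.80. Ppp1r15a, a stress-response phosphatase subunit, Ddx5, Hnrnpa0, Ncl, Srsf3, Rack1 and Tmsb10 were called over all members with fold changes of 1.12 to 2.63 and had too few UMIs to test at 80% globin. Each of these 7 lost its call without WT replicate 2, without replicate 4, or in both cases, with adjusted p of 0.082 for Ppp1r15a without replicate 2 and 0.26 to 0.46 for Ddx5, Hnrnpa0, Rack1 and Tmsb10 without replicate 4. Ddx5, Hnrnpa0, Ncl and Srsf3 lost theirs without any 1 of the 3 captures (edgeR adjusted p of 0.092 to 0.45). The part of mixed barcodes in these calls was not tested.

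Malat1, a long noncoding RNA retained in nuclei, separated the classes once mixed barcodes were set aside. At 80% globin it had 144, 262 and 153 UMIs in embryonic-globin-rich cells (74036, 49602 and 32116 CPM) and 24, 50 and 17 in adult-globin-rich cells (1287, 2712 and 382 CPM), with a log2 fold change of 5.57 ± 0.40 (edgeR adjusted p = 8.8e-34). The lowest embryonic value was above the highest adult one. Over all members the fold change was 1.67 ± 0.20. Malat1 over all members was not called without the filter on low counts (0.87, edgeR adjusted p = 0.32), where the median of all 341 genes moved by -0.80 as well. In the same embryonic-globin-rich cells Xist had 2 UMIs, Meg3 1, Kcnq1ot1 0 and Neat1 4, over 559 of Malat1. Summed over the 3 captures, Xist stood at 167 CPM in these cells and 1514 in other cells of the same captures, and Neat1 at 334 against 19.5. The collagen genes Col1a1, Col1a2 and Col3a1 had 1, 0 and 0 UMIs in these cells. The part of RNA from other cells in the Malat1 difference was not tested.

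The same genes were counted cell by cell. With at least 80% globin, 14 of 15 embryonic-globin-rich cells had a Malat1 UMI (93.3%, median 17 UMIs) and 27 of 86 adult-globin-rich cells did (31.4%, median 0). These cells are pooled from 3 captures and are not replicates, so the shares are a description without a test. Nudt4 was found in 14 of 15 and 53 of 86 cells, with medians of 23 and 1. Alas2 was found in 10 of 15 and 86 of 86, and Slc25a37 in 0 of 15 and 72 of 86. By counting error alone, 0 of 15 allows up to 21.8% of cells with a UMI, which says nothing of cells that express the gene below this depth. Among 21457 other cells Alas2 was found in 0.499%, Slc25a37 in 9.52% and Nudt4 in 39.6%, at a median of 5707 non-globin UMIs, against 567 in the embryonic and 734 in the adult class. Thinned to 300 non-globin UMIs per cell, with 1 embryonic-globin-rich cell left out as too shallow, Malat1 was found in 13 of 14 and 15 of 86 cells, Nudt4 in 13 of 14 and 26 of 86, Alas2 in 7 of 14 and 82 of 86, and Slc25a37 in 0 of 14 and 57 of 86.

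Ribosomal protein genes took a larger share of the embryonic-globin-rich RNA. At 80% globin they made up 17.9%, 19.2% and 17.7% of non-globin UMIs in WT replicates 2, 4 and 5, against 15.1%, 12.5% and 12.1% in the adult class, with no overlap. Of 59 tested there, 21 were called higher, against 18.2% of all genes, and none lower, with a median log2 fold change of 0.75 against -0.32 for all genes. Over all members 17 of 79 were higher, against 10.9% of all genes, and the median was 0.55. When genes with low counts stayed in the fit it was -0.27, with the median of the same 341 genes at -0.80, and no ribosomal protein gene was called higher. None was called without WT replicate 4 or with WT replicate 1 added. Without WT replicate 5 it was 1, without the capture block 3 and without WT replicate 2 11. With Prokr2Cre library 1 added 43 were called higher. Mitochondrially encoded genes gave 4 of 7 lower at 80% globin (mt-Co1, mt-Co2, mt-Co3 and mt-Atp6), against 31.2% of all genes tested there. Over all members 1 of 10 was lower, a smaller share than the 24.9% of all genes. Their share of non-globin UMIs at 80% globin was 1.39%, 0.757% and 3.80% in the embryonic and 4.94%, 3.03% and 4.95% in the adult class.

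Some genes with too few UMIs for the filter were singled out after their values were seen. Pdzk1ip1, a small membrane protein gene, had 4, 23 and 19 UMIs in the embryonic sums and 0 in the adult sums of all 3 captures. At 80% globin 7 of 15 embryonic-globin-rich cells and 0 of 86 adult-globin-rich cells had a UMI, and 0.261% of other cells did. By counting error alone, 0 of 86 allows up to 4.2% of cells with a UMI. Thinned to 300 non-globin UMIs, Pdzk1ip1 was found in 2 of 14 embryonic-globin-rich cells and 0 of 86 adult-globin-rich cells. Heme oxygenase 1 (Hmox1), which breaks down heme, had 5, 5 and 10 UMIs against 1, 0 and 2, and at 80% globin 3, 3 and 6 against 0. Other cells had Hmox1 UMIs in 8.03%. The autophagy receptor gene Sqstm1 had 6, 12 and 8 against 5, 0 and 3.

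The captures outside the test were compared by their values. In Prokr2Cre library 1, 3 embryonic-globin-rich cells with at least 80% globin held 426 Malat1, 237 Nudt4 and 10 Slc25a37 UMIs, and 19 adult-globin-rich cells held 885, 58 and 156. Their non-globin UMIs numbered 14419 and 31218, so the summed Malat1 levels did not separate the classes there. The median cell held 131 Malat1 UMIs in the embryonic and 3 in the adult class, and a single adult-globin-rich cell held 560 of the 885. In library 2 the single embryonic-globin-rich cell held 64 Malat1, 32 Nudt4 and 0 Slc25a37 UMIs, and the single adult-globin-rich cell held 1, 5 and 5. Both embryonic-globin-rich cells of WT replicate 1 had under 50% globin and a median of 2495 genes. With that capture added to the fit, 58 genes were lower and 4 higher, and Malat1 (1.07, edgeR adjusted p = 0.15) was no longer called.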

How the data were processed

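The deposited matrices hold raw UMI counts per gene and barcode. Per the file headers they were made with Cell Ranger 6.0.1 (WT replicate 1), 7.0.0 (WT replicates 2 to 5) and 6.1.2 (both Prokr2Cre libraries), and the counting of intronic reads is not given in the sources used here. The 30323 genes common to all libraries were used. Members and gene lists were chosen with earlier results of these data known. All 10 globin genes were left out of non-globin totals and CPM, and no doublet caller was run. Class sums per capture were tested with edgeR 4.0.16 in R 4.3.3 (quasi-likelihood, TMM, filterByExpr, capture as a block, since both classes of a capture share a nose; Benjamini-Hochberg adjusted p under 0.05). The planned minimum of 10 cells per class left 1 capture, so 4 was used, set after the data were seen. P-values measure the spread between 3 captures. On simulated counts for this contrast (341 genes), 96 of 100 genes changed 4-fold and 100 of 100 changed 16-fold were recovered, with 2 false calls among 198. The simulation used a common dispersion for all genes and the same gene proportions in every capture. As many genes went up as down. Recovery in the real contrast was therefore not measured. Named genes of the contrast were the 12 largest fold changes each way among called genes with 1 sign in every capture, plus called list genes; among members, the 25 highest and the 20 of largest ratio, with list genes. Some genes that the rule names are not reported here. DESeq2 1.42.0 and other alternatives are in the closing section. Total depth was 16773781 to 89800259 UMIs per library.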

Additional observations from a re-analysis of the deposited data

Results flagged for a closer look

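Among 4 WT values, a value stood out where its gap to the nearest other exceeded Dixon's limit for 4 values, which chance gives in about 1 in 20 groups, and 32 measures were examined. The Hbb-bs share of adult beta-type globin was 74.8% in WT replicate 1 and 62.2% to 63.7% in the other 3 captures. Heme synthesis genes summed to 12605 CPM in cells with at least 80% globin of WT replicate 4, against 21118 to 22843 in the others. In such cells of WT replicate 1, endothelial markers gave 32.6 CPM and macrophage markers 10.9 CPM, which are 3 UMIs and 1 UMI. The other captures had 0, so that any UMI there would have stood out, and nothing is read from these values.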

How the results depend on the processing

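At 80% globin or more, markers of 8 other cell types summed to 612 CPM in place of 4590, and 158 genes in place of 85 were at least 4-fold higher than in other cells. With a minimum of 500 genes the erythroid share was 0.288% and 27 genes were higher. A cut at 50% of alpha-type globin put 0 cells in the embryonic class, since no WT cell exceeded 49.7% Hba-x. Where 122 genes were called between the classes, DESeq2 called 78, the fit at 50% globin or more 78 of 229, the fit with WT replicate 1 added 62 (4 higher, 58 lower), and the fit without the replicate block, which pairs the classes of a nose, 73 (15 higher, 58 lower). Leaving out 1 capture gave 64 (without WT replicate 5) to 114 calls (without WT replicate 4). Leaving out 1 capture also gave erythroid shares of 0.769% to 1.11%, embryonic-globin-rich shares of 12.5% to 19.2%, marker sums of 3421 to 5474 CPM, and 85 to 119 genes higher than in other cells, the last without WT replicate 1. Calls higher made up 30.3% of all, 3.76% without the filter on low counts (5 of 133), 45.9% with Prokr2Cre library 1 added (56 of 122), and 42.3% at 50% globin or more. Without the filter, the median log2 fold change of the 341 genes moved by -0.80, and that of Fth1, at -0.12, moved with it. With WT replicate 1 added Fth1 was at -0.069, where the median moved by -0.16, and the cause was not tested. At 50% globin or more Slc4a1, Ube2l6, Hebp1, Gpx1, Fth1, Blvrb, Epb41 and Bnip3l were not called (adjusted p of 0.051 to 0.22). Of 46 named genes, 25, among them Nudt4, Alas2 and Slc25a37, were called the same way under every alternative that could fit them. The planned minimum of 10 cells per class, the cut on alpha-type globin and the minimum of 500 genes gave no class contrast, nor did leaving out cells with 10 to 90% embryonic share, and these were not run. The contrast rests on few embryonic-globin-rich cells, 8, 7 and 11 per capture.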
